A study of Homo sapiens with 26 samples.

Results

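The genes described here are ATF4 and 36 genes reported as its targets, which together serve amino acid supply and the stress response. They were taken as a list of 37 gene symbols, and all 37 have a row in both deposited expression tables, which list 18165 and 17734 genes. Their messenger RNA was measured by RNA sequencing in 26 libraries of LoVo cells (LOVO in the labels), a human colorectal cancer line, in 13 groups of 2 libraries. Per the series description, the lines with PIK3CA/E545K and PIK3CA/H1047R were made from PIK3CA/WT LoVo cells with lentiviral vectors, 2 lines per mutation, and the palbociclib experiment used E545K (2#) and H1047R (3#). The line used in conditioned medium and in the second table is not stated in the labels. Mutation and line therefore cannot be told apart, and a contrast of conditioned medium with DMSO may set different lines of a mutation against each other. PIK3CA encodes the catalytic subunit of the PI3 kinase that feeds growth factor signals to AKT and mTORC1. The first table holds E545K, H1047R and WT cells, each in 0.5 µM palbociclib, in senescence-conditioned medium and in DMSO. The second holds E545K and H1047R cells in 0.5 µM palbociclib with 4 µM erlotinib and in palbociclib alone, with no WT cells and no DMSO libraries. Palbociclib inhibits the cell cycle kinases CDK4 and CDK6, and erlotinib inhibits the EGF receptor. The medium was DMEM with 10% fetal bovine serum, and the labels' protocols give 72 hours of palbociclib or DMSO, and 48 hours when erlotinib was added. They do not give the time spent in conditioned medium, the line that conditioned it or the time in palbociclib alone in the second table, nor whether 2 libraries of a group came from separate cultures, so the p-values measure the spread between these libraries.

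ATF4 is the transcription factor at the end of the integrated stress response. Kinases that sense missing amino acids, unfolded protein, viral RNA or lack of haem phosphorylate the initiation factor eIF2, which lowers general translation and favours translation of the ATF4 messenger. ATF4 pairs with C/EBP family proteins and switches on genes for amino acid synthesis, amino acid import, tRNA export and, when stress lasts, growth arrest and cell death. Since ATF4 is controlled largely at translation, and mTORC1 raises it too, its messenger level does not give its protein level.

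ATF4 and C/EBP proteins are known to bind composite elements whose core reads TGATGNAA. Both strands of the 250 bases before each RefSeq transcription start (GRCh38.p14) were searched for that core, and 29 of the 37 genes have an entry in the promoter table. It was present for 6 of the 29 genes (20.7%), against 3.89% of all 27305 genes in that table. A gene counted if any of its windows matched. By window, 6 of the 48 windows of these genes held the core, against 3.14% of all 35116 windows. A match is a string of letters, and a gene with no match may hold other letters in this window or an element elsewhere. The stretches around the 6 matches are given 5′ to 3′ on the gene's own strand, with the core in capitals, to show what the 6 genes with a match have there, and 23 of the 29 genes have none in this window. Those of ASNS, CHAC1 and SLC1A5 overlap an annotated exon and are given as 30 bases, the others as 60.
ATF3 (chr1:212565190-212565249, plus strand): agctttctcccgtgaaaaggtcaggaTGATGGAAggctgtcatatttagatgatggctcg
JDP2 (chr14:75427962-75428021, plus strand): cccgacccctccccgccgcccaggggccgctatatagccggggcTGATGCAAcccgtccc
CEBPG (chr19:33374045-33374104, plus strand): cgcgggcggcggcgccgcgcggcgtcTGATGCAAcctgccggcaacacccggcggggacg
ASNS (chr7:97872458-97872487, minus strand): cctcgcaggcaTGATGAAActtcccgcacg
CHAC1 (chr15:40953251-40953280, plus strand): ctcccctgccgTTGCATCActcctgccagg
SLC1A5 (chr19:46784893-46784922, minus strand): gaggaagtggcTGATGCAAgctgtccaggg
In CHAC1 the core lies on the opposite strand, so the capitals show its reverse complement. ATF3, JDP2, CEBPG and CHAC1 belong to the regulators and stress genes below, and ASNS and SLC1A5 to the enzymes and transporters.

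Levels are FPKM, fragments scaled by transcript length and library size, so they are shares of a library and not molecules per cell. In these bulk libraries a change in every cell and a change in a share of the cells cannot be told apart. Log2 changes are differences of log2(FPKM + 1), and a relative log2 change has the median of all tested genes subtracted, because that median lay as far as 0.29 from 0. Adjusted p-values are limma's, with Benjamini-Hochberg adjustment over all tested genes, and "rose", "fell" and "called" mean an adjusted p below 0.05 against a change of 0. Each SE rests on the gene's spread pooled over all groups of its table, not on the compared groups alone. VLDLR, a lipoprotein receptor, stood at 0.05 to 0.15 FPKM in all 26 libraries and was not tested. CBS, the first enzyme of transsulfuration, was tested in the first table alone. That left 36 and 35 tested members.

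Of 11 colon epithelial markers, 2 to 4 were below 1 FPKM as a group mean, depending on the group. Their summed level was 7036 to 16733 FPKM per library, against 47.2 to 77 FPKM for 9 markers of immune, endothelial and stromal cells. KRT8 and KRT18 held most of the epithelial sum, averaging 3662 and 2640 FPKM in WT DMSO. CD68 was the highest of the 9 other markers in each group. Another of them, COL3A1, averaged 18.48 FPKM in WT conditioned medium, against 3.465 FPKM in WT DMSO. PIK3CA stood at 7.37 and 8.2 FPKM in E545K DMSO, 6.36 and 7.19 FPKM in H1047R DMSO, and 5.38 and 5.42 FPKM in WT DMSO, and the tables do not separate mutant from endogenous transcript. Replicates correlated across genes at 0.9867 to 0.9974, lowest in H1047R palbociclib of each table. Read depth is unknown.

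The 37 genes did not follow one order over the 9 groups of the first table. Of the 36 tested members, 18 had their highest mean in E545K conditioned medium, and in 11 of those both libraries exceeded every other library. A further 13 were highest in WT DMSO, 10 of them with both libraries above all others. Such counts were not made over all genes, so whether they are particular to the members is not known. The 13 were mostly regulators and stress genes (ATF4, ATF3, CEBPB, CEBPG, JDP2, NUPR1, TRIB3, DDIT4 and PPP1R15A), with MTHFD2, CTH, SLC7A11 and SLC3A2. The 18 were, apart from CHAC1, enzymes, transporters and translation genes such as PHGDH, PSPH, PCK2, GPT2, SLC7A1, SLC7A5, SLC38A2, SLC6A9 and STC2. ATF5, a close relative of ATF4, had its lowest level in WT DMSO, where both libraries lay below every other library.

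**Figure D1:**
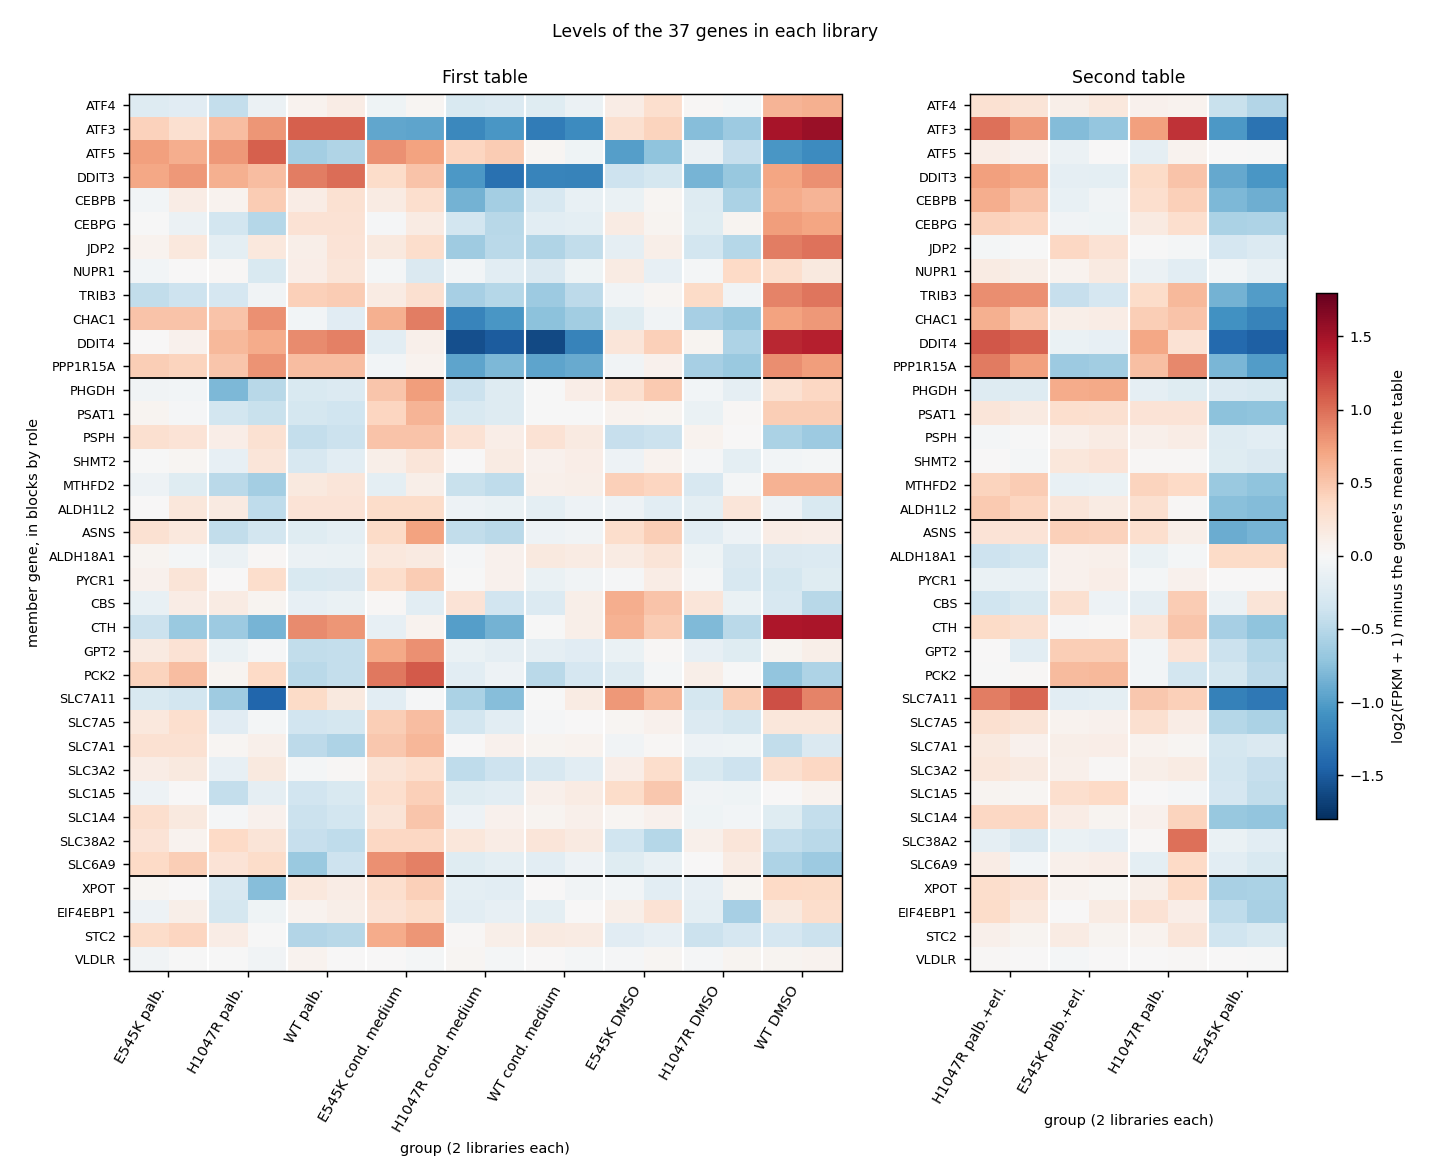
Level of each of the 37 genes in each library, as log2(FPKM + 1) minus the gene's mean within its table, with genes in blocks by role (rows) and 2 libraries per group (columns). Most genes of the upper block are reddest in WT DMSO and bluest in WT or H1047R conditioned medium, while ATF5 is bluest in WT DMSO. PCK2 and SLC6A9 are reddest in E545K conditioned medium, and in the second table the E545K palbociclib columns are blue for most genes.

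ATF4 itself (chromosome 22, 39520559 to 39522686 in GRCh38.p14, RefSeq) had the highest mean FPKM of the 37 genes in each table. It read 361 and 406 FPKM in E545K DMSO, 336 and 323 FPKM in H1047R DMSO and 504 and 512 FPKM in WT DMSO. In palbociclib it read 279 and 286 FPKM in E545K, 243 and 306 FPKM in H1047R and 344 and 360.5 FPKM in WT cells. In conditioned medium it read 311 and 338 FPKM in E545K, 273 and 279 FPKM in H1047R and 284 and 305 FPKM in WT cells. WT DMSO stood alone at the top, followed by E545K DMSO and then WT palbociclib. H1047R DMSO and E545K conditioned medium overlapped, and the range of H1047R palbociclib took in all libraries of the 3 remaining groups. The ratio of the highest to the lowest group mean was 1.85 for ATF4, against 7.03 for ATF3 and 7.74 for DDIT4. ATF4 has processed pseudogenes, so its reads could be split between copies.

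**Figure D2:**
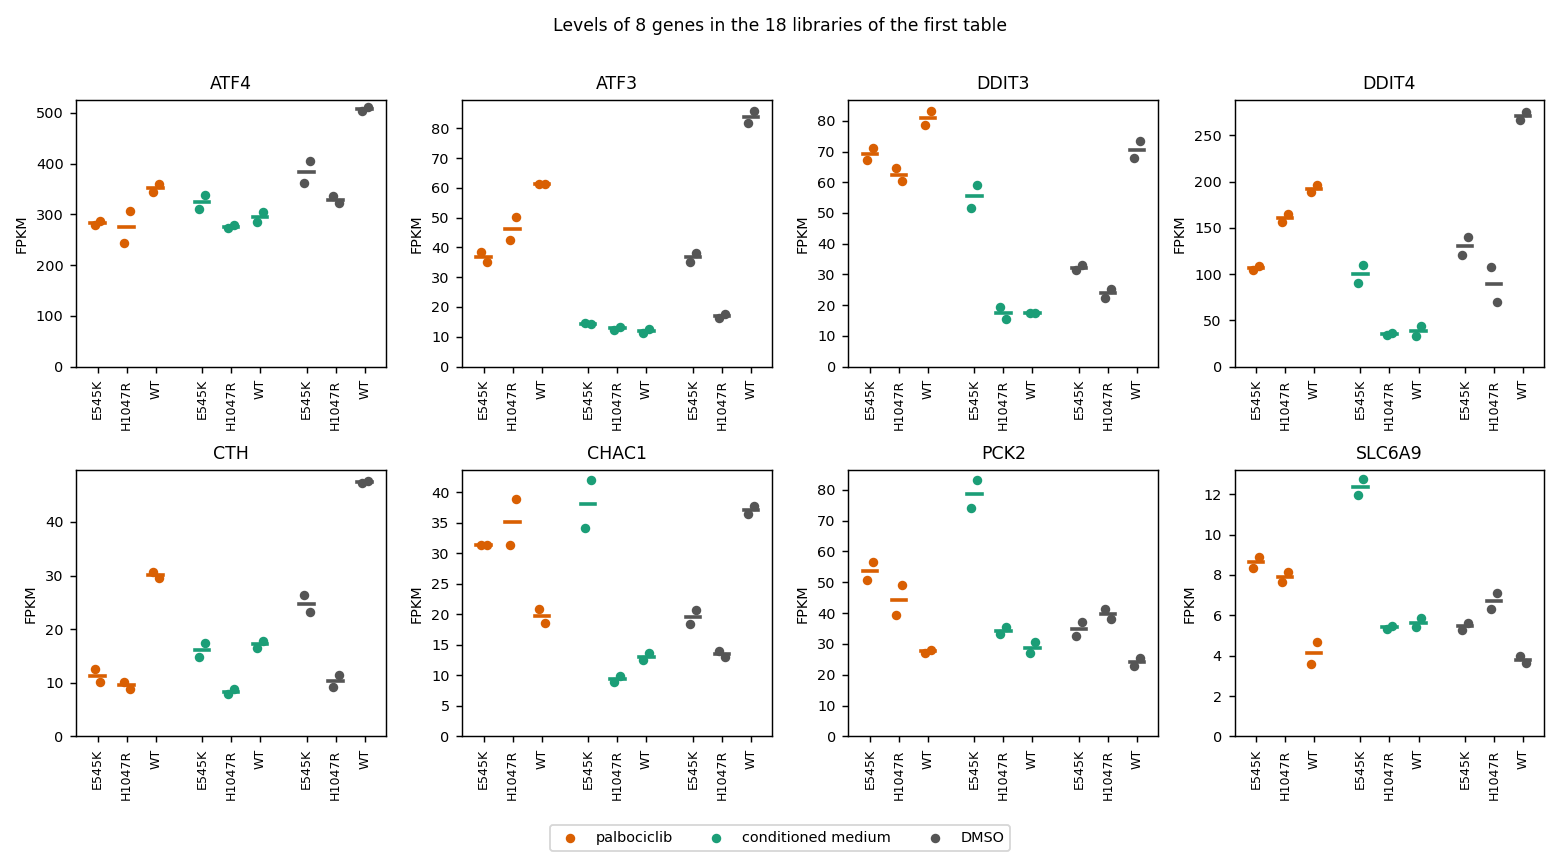
FPKM of 8 members in the 18 libraries of the first table (points, 1 per library; bars, group mean of 2), with genotypes in the order E545K, H1047R, WT within palbociclib, conditioned medium and DMSO. ATF4, ATF3, DDIT4 and CTH are highest in WT DMSO, PCK2 and SLC6A9 in E545K conditioned medium.

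In DMSO, the regulators and stress genes were lower in both mutant lines than in WT cells. Of 12 such genes, 0 rose and 10 fell in E545K, and 1 rose and 10 fell in H1047R, with medians of -1.09 and -1.47 on the relative log2 scale. Over all members, 10 rose and 13 fell in E545K (58.8% of all genes were called, 48.4% higher and 10.4% lower), and 8 rose and 21 fell in H1047R (67.4% of all genes, 49.9% higher and 17.5% lower). The medians of the members were -0.37 in E545K and -0.67 in H1047R relative to all genes. Both comparisons use the same 2 WT libraries. ATF3, a stress-induced repressor of transcription, stood at 35.1 and 38.2 FPKM in E545K and 16.4 and 17.8 FPKM in H1047R, against 81.7 and 85.7 FPKM in WT cells. The 3 lines did not overlap, and the fall was larger in H1047R (relative log2 change -2.49, SE 0.09, adjusted p = 8.66e-11) than in E545K (relative log2 change -1.42, SE 0.09, adjusted p = 8.79e-08), a difference that was not tested. DDIT3, the pro-apoptotic factor also called CHOP, stood at 31.5 and 32.9 FPKM in E545K and 22.4 and 25.2 FPKM in H1047R, against 67.97 and 73.3 FPKM in WT cells. It fell in E545K (relative log2 change -1.36, SE 0.10, adjusted p = 3.9e-07) and in H1047R (relative log2 change -1.79, SE 0.10, adjusted p = 6.34e-09), again with no overlap. DDIT4, an inhibitor of mTORC1, stood at 120.4 and 140.3 FPKM in E545K and 108 and 69.9 FPKM in H1047R, against 267 and 276 FPKM in WT cells. Its H1047R libraries lay further apart than those of the other lines, yet both were below every WT library (relative log2 change -1.89, SE 0.16, adjusted p = 5.84e-07).

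Further regulators followed the same direction in DMSO. JDP2, an AP-1 family repressor, was at 18.4 and 22.4 FPKM in E545K and 16.2 and 14.2 FPKM in H1047R, against 40.3 and 41.7 FPKM in WT cells. PPP1R15A, the eIF2 phosphatase subunit that ends the stress response, was at 33.8 and 37.4 FPKM in E545K and 22.9 and 21.9 FPKM in H1047R, against 63.8 and 60.01 FPKM in WT cells. CHAC1, which degrades glutathione, was at 18.4 and 20.8 FPKM in E545K and 13.97 and 13.1 FPKM in H1047R, against 36.4 and 37.8 FPKM in WT cells. For each of these the mutant libraries lay below both WT libraries. In E545K the relative log2 changes of JDP2, TRIB3 (a pseudokinase that restrains ATF4), CHAC1 and PPP1R15A were -1.23, -1.19, -1.14 and -1.03. ATF4 itself fell in E545K (relative log2 change -0.66, SE 0.09, adjusted p = 0.00172) and in H1047R (relative log2 change -0.88, SE 0.09, adjusted p = 3.23e-05). ATF5 went the other way in H1047R, with 5.67 and 4.37 FPKM against 2.49 and 2.28 FPKM in WT cells (relative log2 change 0.56, SE 0.12, adjusted p = 3.1e-05). NUPR1, a small stress-induced chromatin protein, stood at 1.05 to 2.17 FPKM throughout the first table and was not called in either line.

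The amino acid enzymes and transporters were split in DMSO. CTH, which makes cysteine from cystathionine, stood at 26.3 and 23.2 FPKM in E545K and 9.16 and 11.5 FPKM in H1047R, against 47.3 and 47.6 FPKM in WT cells. The 3 lines were fully apart for CTH, with H1047R the lowest (relative log2 change -2.36, SE 0.12, adjusted p = 2.26e-09) and E545K between (relative log2 change -1.17, SE 0.12, adjusted p = 1.46e-05). SLC7A11, the cystine importer, stood at 16.9 and 14.8 FPKM in E545K and 7.38 and 13.2 FPKM in H1047R, against 22.3 and 18.4 FPKM in WT cells, and fell in H1047R (relative log2 change -1.22, SE 0.23, adjusted p = 0.00194). MTHFD2, the mitochondrial folate enzyme, was at 167 and 162 FPKM in E545K and 101 and 121 FPKM in H1047R, against 191 and 193 FPKM in WT cells. In contrast PCK2, the mitochondrial enzyme that makes phosphoenolpyruvate, was at 32.5 and 37.2 FPKM in E545K and 41.2 and 38.1 FPKM in H1047R, against 22.9 and 25.6 FPKM in WT cells, and the mutant libraries lay above both WT libraries. CBS was at 1.21 and 1.01 FPKM in E545K and 0.63 and 0.3 FPKM in H1047R, against 0.15 and 0 FPKM in WT cells, near the limit of the filter. The GRCh38 build holds a near-identical copy of CBS that could share its reads. CBS was called higher in both mutant lines, and no fold is given because 1 WT library was listed at 0.

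These counts of higher members depend on how libraries are scaled. With the libraries centred on their medians, 1 member rose and 21 fell in E545K, with 43.8% of all calls higher, against 82.3% as reported. In H1047R, 5 rose and 26 fell, with 41.6% of all calls higher, against 74% as reported. Quantile normalization gave 5 higher and 18 lower in E545K and 4 higher and 22 lower in H1047R. Ribosomal protein genes held 18.5% and 19.9% of the FPKM sum in E545K DMSO, 20.2% and 21.4% in H1047R DMSO and 24.9% and 25.1% in WT DMSO. Their part in these results was not tested.

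**Figure D3:**
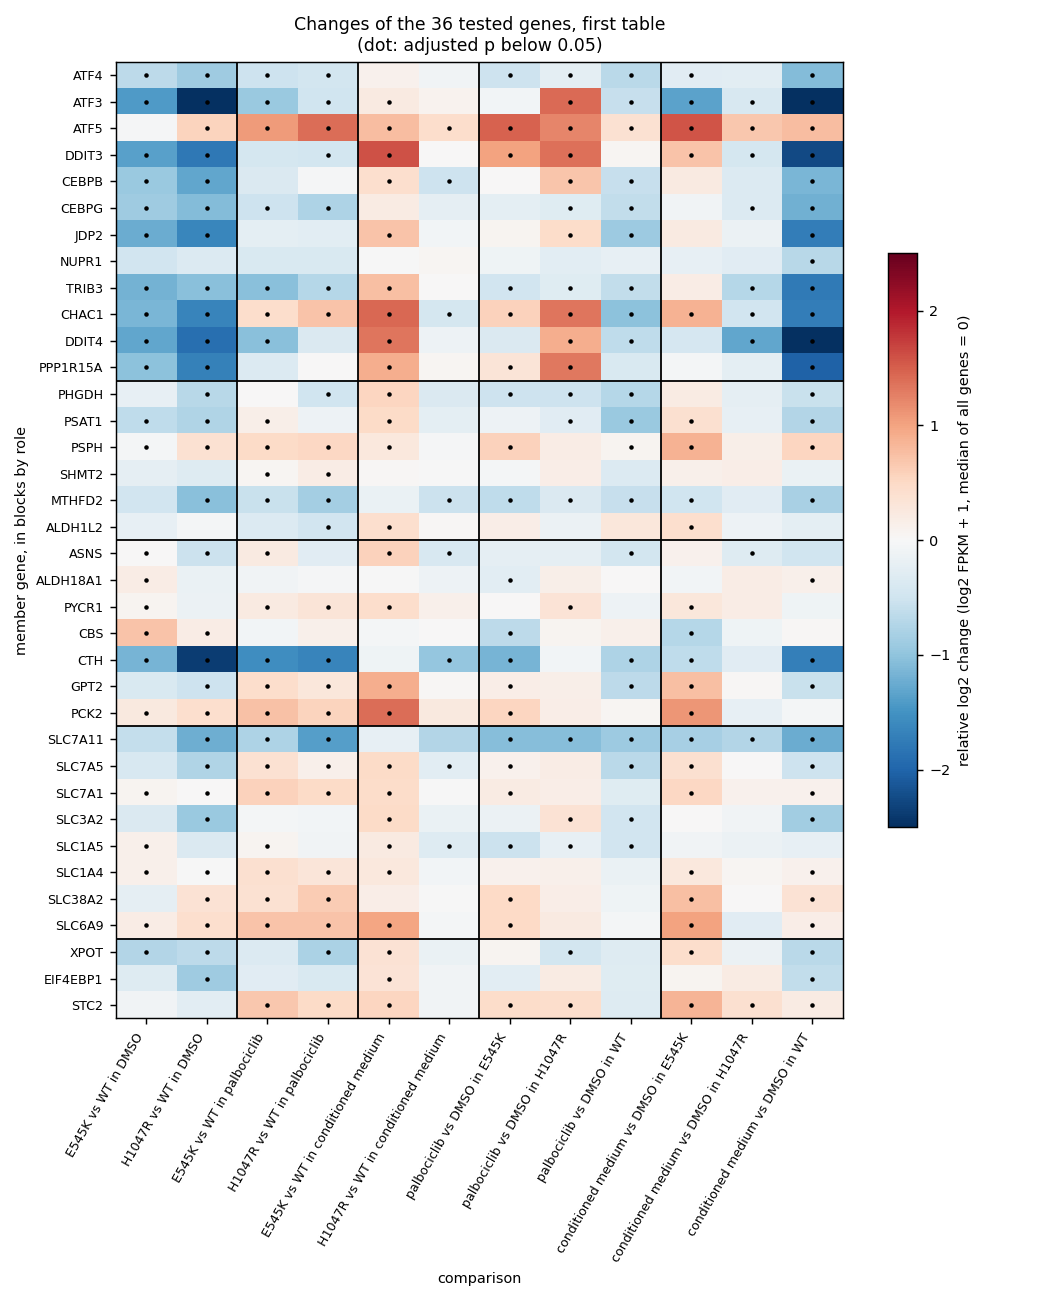
Relative log2 change of the 36 tested members (rows, in blocks by role) in 12 comparisons of the first table (columns), with a dot where the adjusted p was below 0.05. Most regulators and stress genes, ATF5 excepted, are blue in the mutants against WT in DMSO and in conditioned medium against DMSO in WT, and red for 8 genes in palbociclib against DMSO in H1047R, where ATF4, CEBPG and TRIB3 are blue.

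Palbociclib moved the members differently in the 3 lines. In E545K 12 rose and 9 fell (52.2% of all genes were called, 32.9% higher and 19.3% lower), in H1047R 11 rose and 9 fell (39.3%, 19.5% higher and 19.8% lower), and in WT cells 2 rose and 18 fell (34%, 27.2% higher and 6.77% lower). The medians of the members were -0.03, 0.16 and -0.42 in E545K, H1047R and WT cells relative to all genes. In E545K and H1047R cells the shares of members called lower, 9 of 36 in each, were closer to the shares of all genes than in WT cells. ATF4 fell in E545K (relative log2 change -0.52, SE 0.09, adjusted p = 0.00117), in H1047R (relative log2 change -0.24, SE 0.09, adjusted p = 0.0325) and in WT cells (relative log2 change -0.67, SE 0.09, adjusted p = 0.000649). The H1047R call was lost with median-centring (adjusted p = 0.127), with low genes kept (0.0541), with only these groups in the fit (0.351), and without either H1047R DMSO library (0.106 and 0.0812) or the first H1047R palbociclib library (0.266). ATF5 rose in each line, although the WT call was lost with median-centring or quantile normalization. It stood at 10.9 and 10.3 FPKM in E545K palbociclib, against 2.62 and 3.34 FPKM in E545K DMSO (relative log2 change 1.47, SE 0.12, adjusted p = 1.64e-07). In H1047R it stood at 11.3 and 14.1 FPKM in palbociclib, against 5.67 and 4.37 FPKM in DMSO (relative log2 change 1.21, SE 0.12, adjusted p = 5.13e-06).

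In H1047R cells 8 of the 12 regulators and stress genes rose with palbociclib and 3 fell, with a median relative log2 change of 0.80. ATF3 stood at 42.4 and 50.2 FPKM in H1047R palbociclib, against 16.4 and 17.8 FPKM in H1047R DMSO (relative log2 change 1.41, SE 0.09, adjusted p = 3.78e-08). CHAC1 stood at 31.3 and 38.9 FPKM in palbociclib, against 13.97 and 13.1 FPKM in DMSO (relative log2 change 1.33, SE 0.11, adjusted p = 8.46e-07). PPP1R15A stood at 50.5 and 62.3 FPKM in palbociclib, against 22.9 and 21.9 FPKM in DMSO (relative log2 change 1.31, SE 0.09, adjusted p = 1.25e-07). All 3 were higher in both palbociclib libraries, and DDIT3 behaved alike at 64.5 and 60.5 FPKM in palbociclib, against 22.4 and 25.2 FPKM in DMSO (relative log2 change 1.38, SE 0.10, adjusted p = 1.5e-07). SLC7A11 fell to 5.74 and 2.88 FPKM in palbociclib, against 7.38 and 13.2 FPKM in DMSO (relative log2 change -1.07, SE 0.23, adjusted p = 0.00209), its libraries being far apart in each group. The 2 H1047R groups had the largest spread between replicates of the table. With only these 2 groups in the fit, 5 members rose and 0 fell, and without the second H1047R DMSO library 11 members were called in place of 20.

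In E545K cells 4 of the 12 regulators and stress genes rose with palbociclib and 2 fell. DDIT3 stood at 67.2 and 71.04 FPKM in E545K palbociclib, against 31.5 and 32.9 FPKM in E545K DMSO (relative log2 change 1.00, SE 0.10, adjusted p = 5.93e-07). ATF3 was at 38.6 and 35.05 FPKM in palbociclib, against 35.1 and 38.2 FPKM in DMSO, overlapping ranges with no call. Supply genes that rose included PSPH, the last step of serine synthesis, at 35.9 and 34.8 FPKM in palbociclib, against 21.7 and 22.1 FPKM in DMSO (relative log2 change 0.58, SE 0.07, adjusted p = 3.73e-06). SLC38A2, a sodium-coupled importer of small neutral amino acids, was at 152 and 133 FPKM in palbociclib, against 99.7 and 89.05 FPKM in DMSO (relative log2 change 0.50, SE 0.08, adjusted p = 2.46e-05). The glycine transporter SLC6A9 was at 8.37 and 8.9 FPKM in palbociclib, against 5.29 and 5.64 FPKM in DMSO (relative log2 change 0.49, SE 0.10, adjusted p = 0.000265). CTH, by contrast, stood at 12.5 and 10.1 FPKM in palbociclib, against 26.3 and 23.2 FPKM in DMSO (relative log2 change -1.15, SE 0.12, adjusted p = 3.97e-06). With libraries centred on their medians, 8 members rose and 11 fell, with 44% of all calls higher, against 63% as reported.

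In WT cells palbociclib lowered members of every role except the 3 tested translation and other targets, none of which was called. CHAC1 stood at 20.8 and 18.6 FPKM in WT palbociclib, against 36.4 and 37.8 FPKM in WT DMSO (relative log2 change -1.02, SE 0.11, adjusted p = 4.77e-05). PSAT1, the transaminase of serine synthesis, was at 77.3 and 74.6 FPKM in palbociclib, against 131 and 132 FPKM in DMSO (relative log2 change -0.92, SE 0.07, adjusted p = 4.39e-06). PHGDH, the first enzyme of that pathway, was at 86.8 and 88.3 FPKM in palbociclib, against 128 and 136 FPKM in DMSO (relative log2 change -0.72, SE 0.11, adjusted p = 0.001). Treated and control libraries did not overlap for any of these, and SLC7A5, the large neutral amino acid carrier, was likewise lower at 78.02 and 79.2 FPKM in palbociclib, against 115 and 114 FPKM in DMSO (relative log2 change -0.68, SE 0.07, adjusted p = 9.3e-05). DDIT3 was at 78.8 and 83.3 FPKM in palbociclib, against 67.97 and 73.3 FPKM in DMSO, and was not called. With median-centring 0 members rose and 23 fell in WT cells, with 43.5% of all calls higher, against 80.1% as reported, and without the first WT palbociclib library 13 members were called in place of 20.

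Within palbociclib, 16 members were higher and 8 lower in E545K than in WT cells (65.1% of all genes were called, 45.7% higher and 19.4% lower), and 13 higher and 11 lower in H1047R (62.5%, 38.5% higher and 24.1% lower). The medians of the members were -0.06 and -0.08 relative to all genes. CTH was at 12.5 and 10.1 FPKM in E545K and 10.2 and 8.91 FPKM in H1047R, against 30.7 and 29.5 FPKM in WT cells, and fell in E545K (relative log2 change -1.55, SE 0.12, adjusted p = 1.94e-07) and H1047R (relative log2 change -1.65, SE 0.12, adjusted p = 5.6e-08). ATF5 was at 10.9 and 10.3 FPKM in E545K and 11.3 and 14.1 FPKM in H1047R, against 3.72 and 3.94 FPKM in WT cells, and rose in E545K (relative log2 change 1.06, SE 0.12, adjusted p = 4.63e-07) and H1047R (relative log2 change 1.4, SE 0.12, adjusted p = 1.06e-07). SLC6A9 was at 8.37 and 8.9 FPKM in E545K and 7.64 and 8.17 FPKM in H1047R, against 3.58 and 4.66 FPKM in WT cells. Both mutant lines lay above WT cells for ATF5 and SLC6A9 and below them for CTH in every library. ATF4 was lower in E545K (relative log2 change -0.52, SE 0.09, adjusted p = 0.008) and H1047R (relative log2 change -0.46, SE 0.09, adjusted p = 0.00323). The E545K call was lost with quantile normalization (adjusted p = 0.54) and without the second WT palbociclib library (0.0588), the H1047R call with only these groups in the fit (0.0878). With median-centring 11 members were higher and 15 lower in E545K and 9 higher and 14 lower in H1047R, with 43.7% and 45.1% of all calls higher, against 70.2% and 61.5% as reported.

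Conditioned medium was compared with DMSO within each genotype, and the lines of a mutation may differ between the 2 treatments. In E545K cells 16 members rose and 6 fell against DMSO (57.3% of all genes were called, 32.4% higher and 24.9% lower), in H1047R 2 rose and 8 fell (14.6%, 8.65% higher and 5.97% lower), and in WT cells 8 rose and 21 fell (70.5%, 51.9% higher and 18.6% lower). The medians of the members were 0.21, -0.18 and -0.59 in E545K, H1047R and WT cells relative to all genes. The DMSO libraries are also those of the palbociclib comparisons. In WT cells 11 of the 12 regulators and stress genes fell, with a median of -1.73, and ATF5 rose. DDIT4 stood at 32.8 and 44.3 FPKM in WT conditioned medium, against 267 and 276 FPKM in WT DMSO (relative log2 change -3.09, SE 0.16, adjusted p = 2.03e-09). ATF3 stood at 11.3 and 12.5 FPKM in conditioned medium, against 81.7 and 85.7 FPKM in DMSO (relative log2 change -3.01, SE 0.09, adjusted p = 9.86e-12). DDIT3 stood at 17.4 and 17.3 FPKM in conditioned medium, against 67.97 and 73.3 FPKM in DMSO (relative log2 change -2.26, SE 0.10, adjusted p = 4.87e-10). None of the libraries overlapped, and ATF4 fell by less (relative log2 change -1.08, SE 0.09, adjusted p = 2.84e-06). CTH stood at 16.5 and 17.9 FPKM in conditioned medium, against 47.3 and 47.6 FPKM in DMSO (relative log2 change -1.71, SE 0.12, adjusted p = 7.75e-08). Median-centring gave 3 higher and 23 lower in WT cells, with 45.6% of all calls higher, against 73.6% as reported.

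In E545K cells conditioned medium raised 3 and lowered 1 of 6 serine and one-carbon enzymes, raised 3 and lowered 2 of 7 other enzymes, and raised 5 and lowered 1 of 8 transporters. PCK2 stood at 74.2 and 83.3 FPKM in E545K conditioned medium, against 32.5 and 37.2 FPKM in E545K DMSO (relative log2 change 1.11, SE 0.11, adjusted p = 5.09e-07). SLC6A9 stood at 11.97 and 12.7 FPKM in conditioned medium, against 5.29 and 5.64 FPKM in DMSO (relative log2 change 1.00, SE 0.10, adjusted p = 7.53e-07). PSPH stood at 42.2 and 42 FPKM in conditioned medium, against 21.7 and 22.1 FPKM in DMSO (relative log2 change 0.87, SE 0.07, adjusted p = 1.12e-07). Each was higher in both libraries, as was GPT2, the mitochondrial alanine transaminase, at 27.99 and 31.03 FPKM in conditioned medium, against 15.7 and 17.4 FPKM in DMSO (relative log2 change 0.75, SE 0.08, adjusted p = 6.2e-07). STC2, a secreted glycoprotein induced by stress, was at 10.5 and 11.5 FPKM in conditioned medium, against 5.3 and 5.54 FPKM in DMSO (relative log2 change 0.86, SE 0.08, adjusted p = 3.99e-07). Among regulators ATF3 fell (relative log2 change -1.33, SE 0.09, adjusted p = 2.01e-08) while ATF5 (relative log2 change 1.58, SE 0.12, adjusted p = 5.73e-08) and CHAC1 (relative log2 change 0.87, SE 0.11, adjusted p = 6.68e-06) rose. ATF4 was slightly lower (relative log2 change -0.29, SE 0.09, adjusted p = 0.0384), a call lost without the second E545K DMSO library (adjusted p = 0.272), without the first E545K conditioned medium library (0.224) and with no filter on low values (0.0608). With median-centring 14 rose and 7 fell, with 42.9% of all calls higher, against 56.6% as reported. PIK3CA itself read 15.2 and 16.3 FPKM in E545K conditioned medium, against 7.37 and 8.2 FPKM in E545K DMSO, and its part in these results was not tested.

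In H1047R cells 6 of the 8 members that fell in conditioned medium were regulators and stress genes. DDIT4 stood at 33.9 and 36.1 FPKM in H1047R conditioned medium, against 108 and 69.9 FPKM in H1047R DMSO (relative log2 change -1.30, SE 0.16, adjusted p = 0.000287). TRIB3 stood at 48.4 and 51.1 FPKM in conditioned medium, against 93.3 and 70.6 FPKM in DMSO (relative log2 change -0.70, SE 0.11, adjusted p = 0.00134). For both genes the conditioned medium libraries were the lower ones. ATF5 and STC2 rose, with ATF5 at 8.4 and 8.83 FPKM in conditioned medium, against 5.67 and 4.37 FPKM in DMSO (relative log2 change 0.67, SE 0.12, adjusted p = 0.00232). ATF4 was at 273 and 279 FPKM in conditioned medium, against 336 and 323 FPKM in DMSO (relative log2 change -0.26, SE 0.09, adjusted p = 0.0832), which was not called. With the replicate numbers crossed as a block, an alternative chosen after seeing the data, 20 members were called in place of 10. The 10 calls became 5 without the second H1047R DMSO library and 5 without either H1047R conditioned medium library, and 4 with only these 2 groups in the fit.

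Within conditioned medium, 26 of the 36 members were higher in E545K than in WT cells and 0 lower, with 18.1% of all genes called higher and 15.8% lower (33.9% in all), and the members' median was 0.44. With median-centring the count was 20 higher and 0 lower, with 38.3% of all calls higher, against 53.5% as reported. The 10 others, at an adjusted p of 0.05 or more, were ATF4, CEBPG, NUPR1, SHMT2, MTHFD2, ALDH18A1, CBS, CTH, SLC7A11 and SLC38A2. Every block took part, with 9 of 12 regulators and stress genes, 4 of 6 serine and one-carbon enzymes, 4 of 7 other enzymes, 6 of 8 transporters and all 3 translation and other targets. DDIT3 stood at 51.8 and 59.3 FPKM in E545K, against 17.4 and 17.3 FPKM in WT cells (relative log2 change 1.59, SE 0.10, adjusted p = 1.22e-08). CHAC1 stood at 34.2 and 41.97 FPKM in E545K, against 12.6 and 13.6 FPKM in WT cells (relative log2 change 1.44, SE 0.11, adjusted p = 1.46e-07). PCK2 stood at 74.2 and 83.3 FPKM in E545K, against 26.9 and 30.6 FPKM in WT cells (relative log2 change 1.39, SE 0.11, adjusted p = 1.46e-07). The E545K libraries were above the WT libraries for these and for GPT2, at 27.99 and 31.03 FPKM in E545K, against 15.2 and 14.7 FPKM in WT cells (relative log2 change 0.91, SE 0.08, adjusted p = 3.1e-07). ATF4 stood at 311 and 338 FPKM in E545K, against 284 and 305 FPKM in WT cells (relative log2 change 0.11, SE 0.09, adjusted p = 0.28). In H1047R 1 member was higher and 7 lower than in WT cells (8.38% of all genes were called, 3.06% higher and 5.31% lower), with a median of -0.08. CTH led, at 7.87 and 8.77 FPKM in H1047R, against 16.5 and 17.9 FPKM in WT cells (relative log2 change -0.97, SE 0.12, adjusted p = 9.68e-05), and ATF4 was not called (relative log2 change -0.09, SE 0.09, adjusted p = 0.649). Without any 1 of those 4 libraries, 2 members were called in H1047R in place of 8, and median-centring called 5.

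Among genotypes, the response to treatment itself differed for many members, tested as a difference of differences. The difference is the log2 change of the mutant minus that of WT cells, so a higher value can mean a smaller fall. In H1047R, ATF3 averaged 12.79 FPKM in conditioned medium, against 17.11 FPKM in DMSO. In WT cells it averaged 11.91 FPKM in conditioned medium, against 83.69 FPKM in DMSO. For palbociclib the difference was above 0 for 14 members of E545K and below 0 for 2 (10.9% and 14.7% of all genes, 25.7% in all). In H1047R the numbers were 15 and 0 (5.16% and 17.4%, 22.6% in all). With conditioned medium they were 23 and 2 in E545K (10% and 37.1%, 47.1% in all), and 14 and 5 in H1047R (10.4% and 40.5%, 50.9% in all). The medians of the members relative to all genes were 0.34 in E545K and 0.45 in H1047R after palbociclib. After conditioned medium they were 0.78 in E545K and 0.50 in H1047R. All 4 share the WT DMSO libraries, in which 13 of the members had their highest level. With median-centring the counts for H1047R in palbociclib, E545K in conditioned medium and H1047R in conditioned medium were 15 higher and 0 lower, 26 higher and 1 lower, and 18 higher and 3 lower. The shares of all calls that were higher were then 64%, 47.4% and 57.7%, against 22.8%, 21.3% and 20.4% as reported. With only the 4 groups concerned in the fit, the palbociclib difference of H1047R was higher for 9 members and lower for 0.

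In the second table, most members were higher with erlotinib in E545K cells. Of 35 tested members 27 rose and 1 fell in palbociclib with erlotinib against palbociclib alone, while 7.1% of all genes rose and 9.11% fell (16.2% in all). The members' median was 0.61 relative to all genes. ASNS, which makes asparagine, stood at 138 and 136 FPKM with erlotinib, against 54.6 and 56.5 FPKM without it (relative log2 change 1.29, SE 0.06, adjusted p = 6.2e-05). PSAT1 stood at 173 and 171 FPKM with erlotinib, against 83.9 and 84.9 FPKM without it (relative log2 change 1.02, SE 0.04, adjusted p = 5.65e-05). PHGDH stood at 223 and 227 FPKM with erlotinib, against 118 and 116 FPKM without it (relative log2 change 0.94, SE 0.04, adjusted p = 5.65e-05). The serine and one-carbon enzymes rose as a whole block, 6 of 6, and no library of one treatment reached into the range of the other for these 3 genes. Among regulators and stress genes 8 of 12 rose, with DDIT4 at 157 and 154 FPKM with erlotinib, against 63.8 and 60.5 FPKM without it (relative log2 change 1.31, SE 0.12, adjusted p = 0.000635). CHAC1 stood at 48.8 and 49.9 FPKM with erlotinib, against 20.6 and 19 FPKM without it (relative log2 change 1.28, SE 0.07, adjusted p = 7.58e-05). ATF4 rose as well, with 389 and 409.9 FPKM with erlotinib, against 271 and 249.5 FPKM without it (relative log2 change 0.62, SE 0.05, adjusted p = 0.000552). SLC7A11 stood at 13.4 and 13.5 FPKM with erlotinib, against 6.09 and 5.75 FPKM without it (relative log2 change 1.06, SE 0.06, adjusted p = 8.56e-05), and 6 of 8 transporters rose. The member that fell was ALDH18A1, the first enzyme of proline synthesis from glutamate, at 34.2 and 34.9 FPKM with erlotinib, against 41.7 and 41.6 FPKM without it. ATF3, ATF5, NUPR1, PPP1R15A, PYCR1, SLC38A2 and SLC6A9 were not called. Where palbociclib alone ran for other than 48 hours, hours and erlotinib cannot be told apart. Ribosomal protein genes held 22.5% and 22.2% of the FPKM sum with erlotinib, against 18.9% and 19.2% without it, and their part in these results was not tested.

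**Figure D4:**
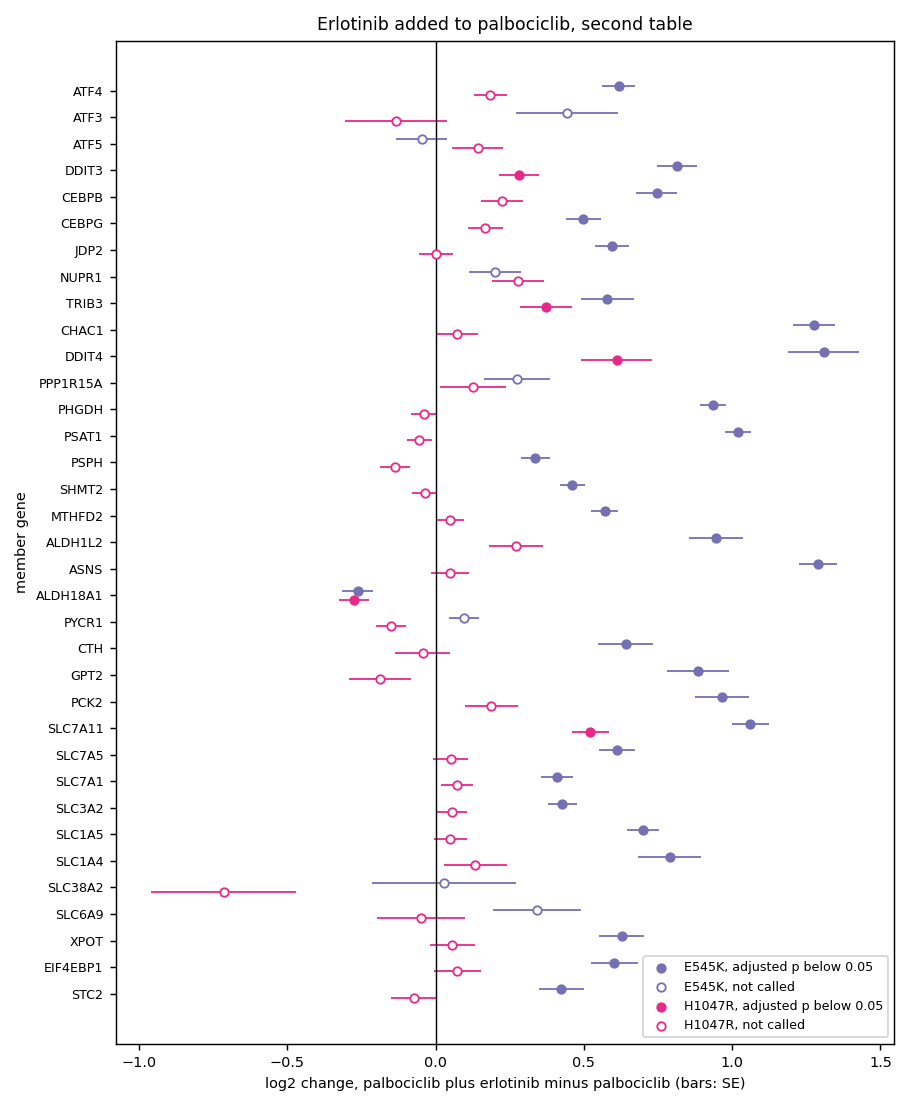
Log2 change of the 35 tested members for palbociclib with erlotinib minus palbociclib alone (x axis; points with SE bars, filled where the adjusted p was below 0.05) in E545K and H1047R cells. In E545K 27 genes lie to the right and ALDH18A1 to the left of 0 as filled points; in H1047R most genes lie near 0, and DDIT3, TRIB3, DDIT4 and SLC7A11 are the 4 filled points to the right.

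In H1047R cells 4 members rose and 1 fell with erlotinib (9.36% of all genes were called, 3.01% higher and 6.35% lower), and the members' median was 0.09. DDIT4 stood at 371 and 355 FPKM with erlotinib, against 277 and 203 FPKM without it (relative log2 change 0.65, SE 0.12, adjusted p = 0.0192). SLC7A11 stood at 30.2 and 32.5 FPKM with erlotinib, against 21.9 and 21.2 FPKM without it (relative log2 change 0.55, SE 0.06, adjusted p = 0.00249). ATF4 stood at 437 and 421 FPKM with erlotinib, against 378 and 376 FPKM without it (relative log2 change 0.22, SE 0.05, adjusted p = 0.068), and was not called. For all 3 genes the libraries with erlotinib were the higher ones. With median-centring 6 members rose and 1 fell, with 50.8% of all calls higher, against 32.1% as reported. The 2 libraries of H1047R palbociclib alone lay apart for several members, as for SLC38A2 at 203 and 398 FPKM, and calling was sensitive to them. Leaving out the first of them gave 16 calls and the second 11, while leaving out either H1047R library with erlotinib gave 1, as did a fit with only these 2 groups. The difference in response between the lines was lower in H1047R for 20 of 35 members and higher for 0, while 1.27% of all genes were lower and 0.899% higher (2.17% in all), with a member median of -0.50. All 6 serine and one-carbon enzymes were among the 20. Median-centring left 0 higher and 18 lower, with 55.3% of all calls higher, against 41.5% as reported. The count of 20 ran from 4 to 31 over the libraries left out in turn. It was 7 and 5 without the first and second E545K palbociclib library, 31 without the first H1047R palbociclib library, and 4 without any 1 of the 4 libraries with erlotinib.

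The lines were also compared directly within the second table. In palbociclib alone, 28 of 35 members were higher in H1047R than in E545K and 1 was lower (21.5% of all genes were higher and 30.1% lower, 51.6% in all), with a median of 0.75 relative to all genes. ATF3 stood at 55.7 and 82.96 FPKM in H1047R, against 15.6 and 12.5 FPKM in E545K (relative log2 change 2.25, SE 0.17, adjusted p = 2.36e-05). SLC7A11 stood at 21.9 and 21.2 FPKM in H1047R, against 6.09 and 5.75 FPKM in E545K (relative log2 change 1.75, SE 0.06, adjusted p = 4.38e-07). PPP1R15A stood at 84.8 and 106 FPKM in H1047R, against 32.3 and 28.4 FPKM in E545K (relative log2 change 1.66, SE 0.11, adjusted p = 1.25e-05). All 3 were well separated, and ATF4 was higher too (relative log2 change 0.58, SE 0.05, adjusted p = 9.26e-05). In the first table several members had the opposite order of H1047R and E545K in palbociclib, as given under the other observations. For 30 of the 35 members E545K palbociclib had the lowest mean of the 4 groups, with both its libraries below all 6 others in 29 of them. That count was not made over all genes either. These same E545K libraries enter the erlotinib comparison in E545K, the difference in erlotinib response and the comparison in palbociclib alone. The counts of those comparisons are therefore not separate results. With erlotinib present 14 members were higher in H1047R and 10 lower (19.9% and 33.1% of all genes, 53% in all), with a median of 0.21. There ATF3 was at 66.7 and 57.5 FPKM in H1047R, against 18.8 and 19.9 FPKM in E545K (relative log2 change 1.71, SE 0.17, adjusted p = 0.000117), and PHGDH at 119.97 and 119.7 FPKM in H1047R, against 223 and 227 FPKM in E545K (relative log2 change -0.82, SE 0.04, adjusted p = 1.49e-06). ATF4 did not pass (relative log2 change 0.18, SE 0.05, adjusted p = 0.145). The regulators and stress genes counted 8 higher and 1 lower in H1047R, and the 6 other enzymes tested 1 higher and 5 lower. Median-centring gave 18 higher and 8 lower, with 50.5% of all calls higher, against 37.6% as reported.

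**Figure D5:**
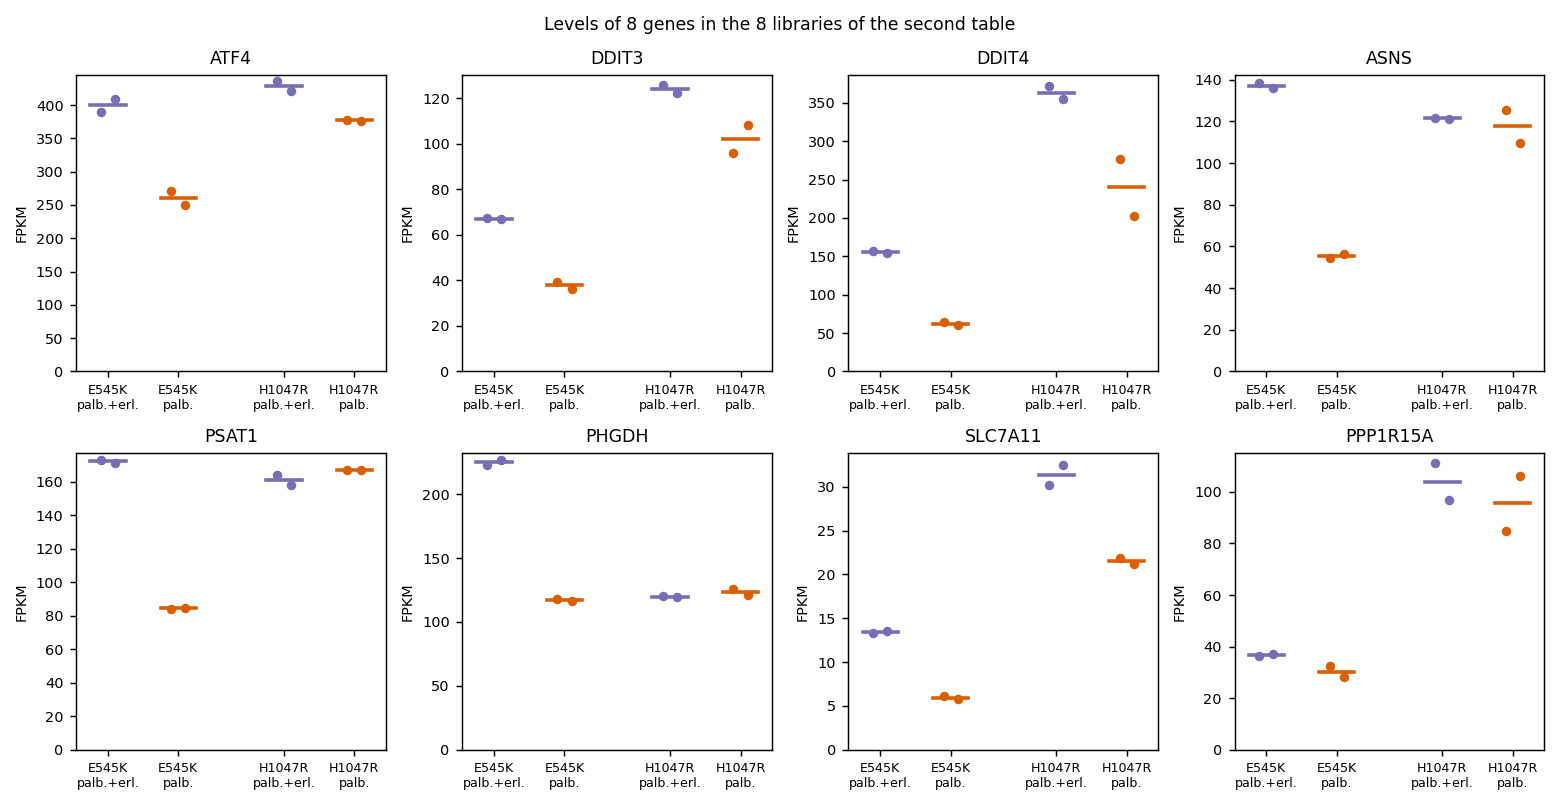
FPKM of 8 members in the 8 libraries of the second table (points, 1 per library; bars, group mean of 2), for E545K and H1047R cells in palbociclib with erlotinib and in palbociclib alone. E545K palbociclib alone has both libraries below all others for each of the 8 genes, by a small margin for PHGDH, whose E545K libraries with erlotinib stand at 223 and 227 FPKM.

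Other genes of the pathway were read from lists kept apart from the 37. Of 10 tested further ATF4 targets, 1 rose and 7 fell in E545K and 2 rose and 7 fell in H1047R against WT cells in DMSO, with medians of -0.73 and -1.23 relative to all genes, while 10.4% and 17.5% of all genes fell. GDF15, a secreted stress hormone that p53 also induces, averaged 66.02 FPKM in H1047R, against 910.1 FPKM in WT cells (relative log2 change -4.03, SE 0.13, adjusted p = 3.36e-11). With erlotinib in E545K, 4 of these 10 rose and 0 fell, led by NIBAN1 and SESN2, the sestrin that restrains mTORC1. Of 20 cytosolic aminoacyl tRNA synthetases, which charge tRNAs, 12 rose and 2 fell in E545K against WT cells in DMSO, with a median relative log2 change of 0.07, where 48.4% of all genes rose and 10.4% fell. With erlotinib in E545K, where 7.1% of all genes rose and 9.11% fell, 9 of the 20 rose and 0 fell, led by SARS1 at an average of 202 FPKM, against 106 FPKM without erlotinib (relative log2 change 0.94, SE 0.05, adjusted p = 8.56e-05). Of 12 amino acid transporters outside the 37, 3 rose and 1 fell in that comparison, and of 14 further enzymes of serine, folate, proline and glutamine metabolism 1 rose and 4 fell. Conditioned medium in WT cells raised 9 of those 12 transporters and lowered 0, where 51.9% of all genes rose and 18.6% fell, as with SLC38A1 at an average of 95.03 FPKM, against 36.4 FPKM in DMSO (relative log2 change 1.07, SE 0.16, adjusted p = 3.53e-06). The higher calls in WT conditioned medium, and in E545K against WT cells in DMSO, depend on scaling, as given above for the members.

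Genes upstream of ATF4 and of the other stress arms were read in the same way. Of 17 eIF2 kinases, eIF2 and eIF2B subunits and regulators, 12 rose and 3 fell in E545K and 11 rose and 3 fell in H1047R against WT cells in DMSO, with medians of 0.02 and 0.17 relative to all genes. Over all genes 48.4% rose and 10.4% fell in E545K, and 49.9% rose and 17.5% fell in H1047R, and the higher calls in both comparisons depend on scaling, as given above for the members. PPP1R15B, the constitutive eIF2 phosphatase subunit, was the one of largest change, averaging 30.4 FPKM in H1047R, against 112 FPKM in WT cells (relative log2 change -2.12, SE 0.11, adjusted p = 3.76e-09). With erlotinib in E545K 2 of the 17 rose and 1 fell, where 7.1% of all genes rose and 9.11% fell. Of 21 chaperones and regulators of the endoplasmic reticulum governed mainly by XBP1 and ATF6, 15 rose and 0 fell with palbociclib in WT cells (27.2% of all genes rose and 6.77% fell), where 8 of 12 ATF4 regulators and stress genes fell. HSPA5, the main chaperone of that compartment, averaged 627 FPKM in WT palbociclib, against 314 FPKM in WT DMSO (relative log2 change 0.86, SE 0.07, adjusted p = 2.32e-07). In E545K 4 of the 21 rose and 10 fell with palbociclib (32.9% and 19.3% of all genes), and in H1047R 12 rose and 0 fell (19.5% and 19.8%). The higher calls with palbociclib in WT and E545K cells depend on scaling, as given above for the members. With erlotinib in E545K 3 of the 21 rose and 6 fell (7.1% and 9.11% of all genes), led by the falls of SDF2L1 and CRELD2.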

How the data were processed

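RNA of 26 LoVo libraries was sequenced, and FPKM values per gene were deposited by the authors in 2 tables. The submitters' processing notes name RSEM 1.3.1, DESeq2 1.4.5, the aligners Bowtie2 2.3.4.3 and HISAT2 2.1.0, and the build GRCh38, without saying which step each made. Counts and depth are not given, so no count test was run. Low values were divided by the gene's own lowest nonzero value. Of these ratios, 47.6% in the first and 43.7% in the second table lay within 0.15 of whole numbers, where 30% is the chance level. That was too few to recover reads.

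Genes with at least 1 FPKM in 2 or more libraries of a table were kept, 12607 and 12463 genes. log2(FPKM + 1) was fitted with limma 3.58.1 (R 4.3.3), a mean for each group, a trended prior and Benjamini-Hochberg adjustment over all kept genes within each comparison. A pseudocount of 1 understates changes of low genes. The tables were fitted apart, with 9 and 4 residual degrees of freedom. The fit was tested on simulated data that gave each gene the same spread in all groups. Real groups differ in spread (residual SD 0.232 in H1047R palbociclib and 0.095 in WT palbociclib), which that test does not cover. Fold changes and p-values are printed for ATF4 and the 10 called members of largest change per comparison (4 for differences in response), and for up to 4 called genes of each further list. The members, lists and tests were chosen with earlier results of these data known, and the 2 comparisons of H1047R with E545K in the second table were added after the data were seen. Promoter sequence is from RefSeq. Alternatives were another pseudocount, no filter, quantile normalization, median-centring, a TPM scale, only the compared groups, a replicate block and each library left out.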

Additional observations from a re-analysis of the deposited data

Results flagged for a closer look

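The members below were singled out because the response to one treatment differed between 2 genotypes, by limma's test of the difference of differences with Benjamini-Hochberg adjustment over all genes. Values are signed differences in relative log2 change, so a positive value can mean a smaller fall and a negative one a smaller rise. For palbociclib, 16 of 36 members differed between E545K and WT cells (25.7% of all genes). CHAC1 (relative log2 change 1.58, SE 0.16, adjusted p = 1.57e-05), ATF5 (relative log2 change 1.08, SE 0.17, adjusted p = 0.00067), JDP2 (relative log2 change 0.98, SE 0.17, adjusted p = 0.0012) and DDIT3 (relative log2 change 0.92, SE 0.14, adjusted p = 0.000408) differed most. Between H1047R and WT cells 15 of 36 members differed (22.6% of all genes). They were led by CHAC1 (relative log2 change 2.36, SE 0.16, adjusted p = 3.5e-06), ATF3 (relative log2 change 1.99, SE 0.12, adjusted p = 2.01e-06), PPP1R15A (relative log2 change 1.69, SE 0.13, adjusted p = 1.02e-05) and DDIT4 (relative log2 change 1.54, SE 0.23, adjusted p = 0.00178).

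For conditioned medium, 25 of 36 members differed between E545K and WT cells (47.1% of all genes). DDIT3 (relative log2 change 2.96, SE 0.14, adjusted p = 3.12e-09), DDIT4 (relative log2 change 2.65, SE 0.23, adjusted p = 1.88e-06), CHAC1 (relative log2 change 2.58, SE 0.16, adjusted p = 6.62e-08) and JDP2 (relative log2 change 1.95, SE 0.17, adjusted p = 2.3e-06) differed most, and ATF4 differed less (relative log2 change 0.77, SE 0.13, adjusted p = 0.00354). Between H1047R and WT cells 19 of 36 members differed, a share near that of all genes (50.9%). They were led by ATF3 (relative log2 change 2.60, SE 0.12, adjusted p = 1.18e-08), DDIT3 (relative log2 change 1.81, SE 0.14, adjusted p = 9.41e-07), DDIT4 (relative log2 change 1.78, SE 0.23, adjusted p = 9.18e-05) and PPP1R15A (relative log2 change 1.76, SE 0.13, adjusted p = 6.66e-07), again with ATF4 (relative log2 change 0.80, SE 0.13, adjusted p = 0.00383). These rest on the same WT DMSO libraries.

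For erlotinib, 20 of 35 members differed between H1047R and E545K cells (2.17% of all genes). ASNS (relative log2 change -1.21, SE 0.09, adjusted p = 0.00138), CHAC1 (relative log2 change -1.17, SE 0.10, adjusted p = 0.0016), PSAT1 (relative log2 change -1.04, SE 0.06, adjusted p = 0.000391) and GPT2 (relative log2 change -1.04, SE 0.15, adjusted p = 0.0129) differed most. ATF4 was called too (relative log2 change -0.40, SE 0.08, adjusted p = 0.0304), but not with the replicate block (adjusted p = 0.0649), with no filter (0.0758) or without any 1 of the 4 libraries with erlotinib or the 2 of E545K palbociclib (0.0652 to 0.179). GPT2 was likewise not called with no filter (0.0537) or without any 1 of those 6 libraries (0.0523 to 0.0869).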

How the results depend on the processing

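Of the members named with a fold change, none changed the sign of its log2 change under the alternatives tried. Of members not so named, PSPH in E545K DMSO and SLC1A4 in H1047R DMSO were called higher than WT but had relative log2 changes of -0.0451 and -0.0011. The counts of members called stayed within 1.5 times of those reported except as follows. Median-centring called 5 members between H1047R and WT cells in conditioned medium. With only the compared groups in the fit, 5 members were called for palbociclib in H1047R, 4 for conditioned medium in H1047R, 9 for the palbociclib response of H1047R against WT cells and 1 for erlotinib in H1047R. For erlotinib in H1047R, 2 were called with no filter and 3 on the TPM scale. For the erlotinib response, 9 were called with no filter. Leaving out 1 library at a time gave 13 to 16 for palbociclib in WT cells, 11 to 23 for palbociclib in H1047R, 5 to 12 for conditioned medium in H1047R, 2 for H1047R against WT cells in conditioned medium, 1 to 16 for erlotinib in H1047R and 4 to 31 for the erlotinib response. The causes were not tested.

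The check of pairing by replicate number failed, since not every pair of groups correlated over 0.1: over 36 pairs of groups in the first table their deviations correlated at -0.561 to 0.553 (median 0.0725), 15 of them over 0.1 and 6 under -0.1, all 6 with H1047R DMSO. Over 6 pairs in the second table they correlated at -0.1 to 0.026. With the replicate block, 3 members were called for erlotinib in H1047R and 13 for the erlotinib response, and other counts stayed within 1.5 times. With crossed numbers, an alternative chosen after seeing the data, 20 members were called for conditioned medium in H1047R, 28 for H1047R against WT cells in DMSO and 18 for palbociclib in H1047R. With 2 libraries a group and unknown read depth, the precision of low genes such as NUPR1 and CBS is limited.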

Other observations

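For MTHFD2 and SLC7A11, H1047R and E545K in palbociclib were in the opposite order in the 2 tables, and for ATF3 in the same order. By group mean, ASNS, PSAT1, SLC7A5, XPOT, CEBPG and DDIT3 were likewise lower in H1047R in the first table and higher in the second. CHAC1, DDIT4, PPP1R15A, CEBPB and TRIB3 had higher means in H1047R in both tables. These genes were chosen after their values were seen. The tables were normalised separately, the labels do not give the line or the hours of palbociclib alone for the second, and no test was made across them. MTHFD2 read 87.9 and 80.5 FPKM in H1047R and 117 and 106 FPKM in E545K in the first table, and 181 and 176 FPKM in H1047R and 85.9 and 82.4 FPKM in E545K in the second. SLC7A11 read 5.74 and 2.88 FPKM in H1047R and 7.64 and 7.28 FPKM in E545K in the first table, and 21.9 and 21.2 FPKM in H1047R and 6.09 and 5.75 FPKM in E545K in the second. For both genes the H1047R libraries were the lower ones in the first table and the higher ones in the second. ATF3 read 42.4 and 50.2 FPKM in H1047R and 38.6 and 35.05 FPKM in E545K in the first table, and 55.7 and 82.96 FPKM in H1047R and 15.6 and 12.5 FPKM in E545K in the second.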
